A study of Mus musculus with 24 samples.

Results

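Newborn and young adult mouse lung were compared here, postnatal day 1 (5 arrays) against day 42, labelled 6 weeks (4 arrays), which makes 9 of the 24 arrays in the series. The samples were chosen by their labelled age alone, and every gene tested belongs to the comparison. All animals were healthy C57BL/6 mice with no treatment or altered allele named, each sample was total RNA of whole lung, and the replicates were labelled biological, so p-values measure the spread between these samples. Sex and pooling were not stated, and the series title speaks of fetal lung although every sample was labelled postnatal. The other 15 arrays (days 4, 7 and 14, 5 each) entered the fit to estimate the spread and showed when a level was reached.

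At day 1 the mouse lung has air sacs with thick walls that hold a capillary network on each side. Over the following weeks new septa, built with elastin and myofibroblasts, divide the sacs into alveoli, the walls thin, and the double capillary layer merges into one. The newborn animal also leaves fetal blood formation, placental and maternal endocrine control and a germ-poor environment, and its lung acquires lymphocytes, resident alveolar macrophages and the enzymes that oxidize inhaled compounds. In whole tissue, a lower level can come from fewer cells of a type or from less RNA per cell, which cannot be told apart.

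A value after a gene is the log2 difference of day 42 minus day 1 ± its standard error (SE) from limma, so 1 is a doubling and negative values are lower at day 42. Per-array values are log2 levels relative to the array's own 75th percentile of signal, given for replicates 1 to 5 of day 1 and 1 to 4 of day 42. A gene rose or fell where its Benjamini-Hochberg adjusted p over 15889 genes was under 0.05. Where a gene was not well above background on any array of 1 age, its fold is a lower bound ("at least"). It sets the mean of the brighter age against, on each dim array, the weakest signal that still counted as well above background or the probe's own signal, whichever was higher.

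The defining markers of lung were present on every array of both ages. Surfactant protein C (Sftpc) lay at 8.90, 8.69, 8.38, 10.05 and 9.42 at day 1 and 8.59, 8.72, 8.57 and 9.37 at day 42. The alveolar type 1 gene Ager, the club cell gene Scgb1a1, the cilia regulator Foxj1, the endothelial Pecam1, the fibroblast Tcf21, the collagen Col1a1 and the leukocyte gene Ptprc were each well above background on all 9 arrays. Heart muscle RNA was present too, with the atrial and ventricular gene Myh6 well above background on all 9.

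Of the 9 arrays, 3 were weak, with a 75th percentile of the processed signal of 476.1 (day 1 replicate 4), 692.6 (day 1 replicate 5) and 672 (day 42 replicate 4), against 996 or more on the 19 stronger arrays of the series. On these low-signal arrays 50.4% to 54.6% of the spots were well above background, and they lay apart, with 2 day 4 arrays, on the component that held most variance (49.8%). Abundant genes such as Sftpc read higher on them and many dim genes read lower, in both ages. Counts of genes past the test are therefore also given without the 5 low-signal arrays of the series, which are these 3 and the 2 day 4 arrays. This leaves 3 arrays a side, and the spread is then estimated without the 5. Gene differences and list medians are those of all arrays unless stated. Of 210 called genes named in the text, 0 lost the call without the low-signal arrays. The arrays lay on 3 slides, with day 1 replicates 1 and 4 and day 42 replicate 1 on slide 1, day 1 replicates 2 and 5 and day 42 replicates 2 and 3 on slide 2, and day 1 replicate 3 and day 42 replicate 4 on slide 3. Every slide thus held a low-signal array, and the median difference of all genes was -0.29, -0.16 and 0.57 within slides 1, 2 and 3, against -0.06 over all arrays.

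Between day 1 and day 42 4250 of 15889 genes passed the test (26.7%), 2067 of them higher (13.0%) and 2183 lower (13.7%) at day 42. Without the low-signal arrays 7405 passed (46.6%), 3583 higher (22.6%) and 3822 lower (24.1%). These shares are the background for every list below. Of the genes called on all arrays, 4129 were called in the same direction without the low-signal arrays, 121 were not called, and 0 had a difference of the opposite sign. Levels of the ages did not overlap for 1372 genes with day 42 higher (8.63%) and 1249 with day 42 lower (7.86%). Among the called genes, 1425 rose and 1381 fell by at least 2-fold, and 172 and 205 by at least 8-fold. Within all 3 slides 3319 of the 4250 kept their direction.

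**Figure D1:**
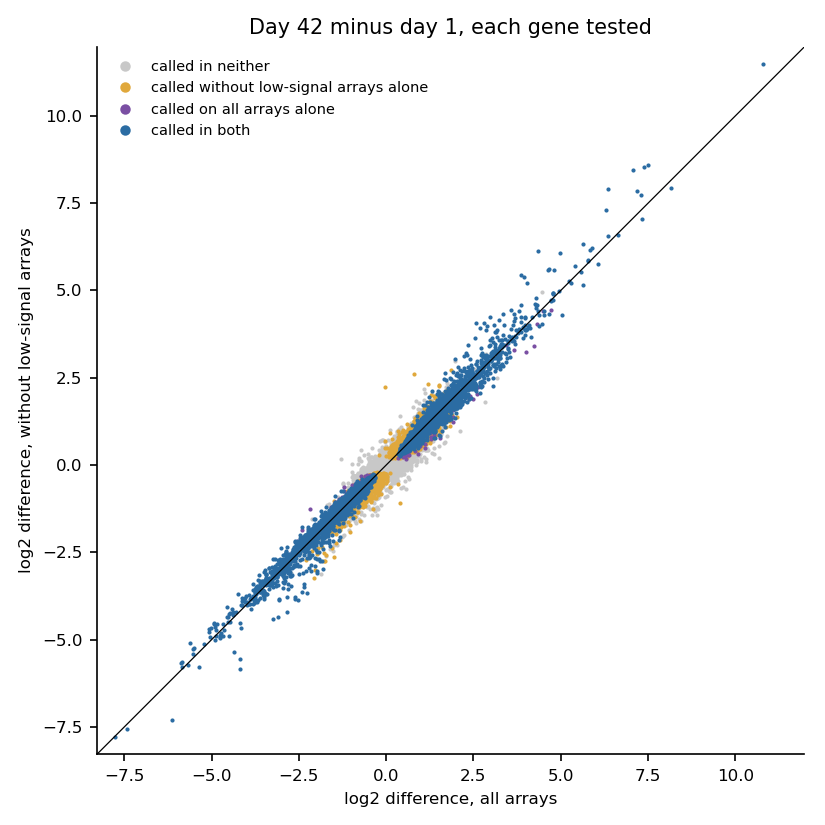
Log2 difference of day 42 minus day 1 for each of the 15889 genes tested, from all arrays (x axis) and without the low-signal arrays (y axis), with called genes coloured and the diagonal drawn. The called genes lie along the diagonal on both sides, and 0 genes were called in opposite directions.

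The largest differences are ranked here over genes well above background on at least 3 arrays of each age. Ranked genes also had to pass without the low-signal arrays and to show no overlap between the ages. By the rule on background Cfd, Mmp3 and Adipoq, well above background on 1 or 2 day 1 arrays, and Tnni1, so on 2 day 42 arrays, stay out, although their fitted differences, given further on, would rank among these. Bpifa1, an antimicrobial airway protein, rose most of the ranked genes, from -7.85, -3.48, -0.93, -6.65 and -4.63 to 4.71, 5.19, 1.66 and 2.21, with no overlap but a wide spread at day 1 (8.15 ± 1.74). Inmt, an amine methyltransferase of lung fibroblasts, stood at 0.67, -0.17, -0.50, 1.94 and 1.68 at day 1 and at 7.54, 7.92, 7.75 and 8.91 at day 42 (7.30 ± 0.56, adjusted p = 3.95e-09). Lrat, which stores vitamin A as retinyl ester, went from -5.00, -4.98, -4.46, -6.59 and -7.10 to 2.03, 1.53, 1.76 and -1.27 (6.64 ± 0.76), with day 42 replicate 4, a low-signal array, below its group. Every Inmt and Lrat value of day 42 lay above every value of day 1, as the ranking required of each gene. Bpifa1 on day 1 replicates 1 and 4 lay below the weakest signal well above background on those arrays (-5.66 and -4.43). Lrat did so on day 1 replicates 4 and 5 (-4.43 and -4.95). The fitted differences of both genes thus rest partly on readings below that limit. Retn (resistin, 6.36 ± 0.81), the macrophage lectin Chil3 (5.77 ± 0.36), Ms4a4d (5.64 ± 0.64), the protease inhibitor Serpina3n (5.59 ± 0.67), the fatty acid binder Fabp1 (5.29 ± 0.64), Gm4956 (5.25 ± 0.60), the sodium channel Scn3a (5.05 ± 0.66) and Cyp2b9 (4.95 ± 0.46) were also among the 12 largest.

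The largest fall among the ranked genes was that of Dlk1, an imprinted gene of immature tissues, from 4.46, 3.70, 4.20, 5.76 and 5.20 to -1.99, -3.83, -5.14 and -1.48 (-7.78 ± 0.78). Trim67 (-5.88 ± 0.76), the stefins Stfa1 (-5.85 ± 0.49) and Stfa3 (-5.85 ± 0.49), Lrrc15 (-5.67 ± 0.61), the kinase gene Camk1g (-5.63 ± 0.48), the replication-dependent histones H1f5 (-5.54 ± 0.50) and H2ac4 (-5.52 ± 0.48), the carboxypeptidase Cpa1 (-5.50 ± 0.44), Egfem1 (-5.21 ± 0.60), angiotensinogen (Agt, -5.07 ± 0.68) and Kcne1l (-5.07 ± 0.59) followed. Stfa1 and Stfa3 are near-identical copies whose probes can take up each other's RNA, so they may be 1 measurement. Adjusted p-values of these genes were 0.00103 or less.

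**Figure D2:**
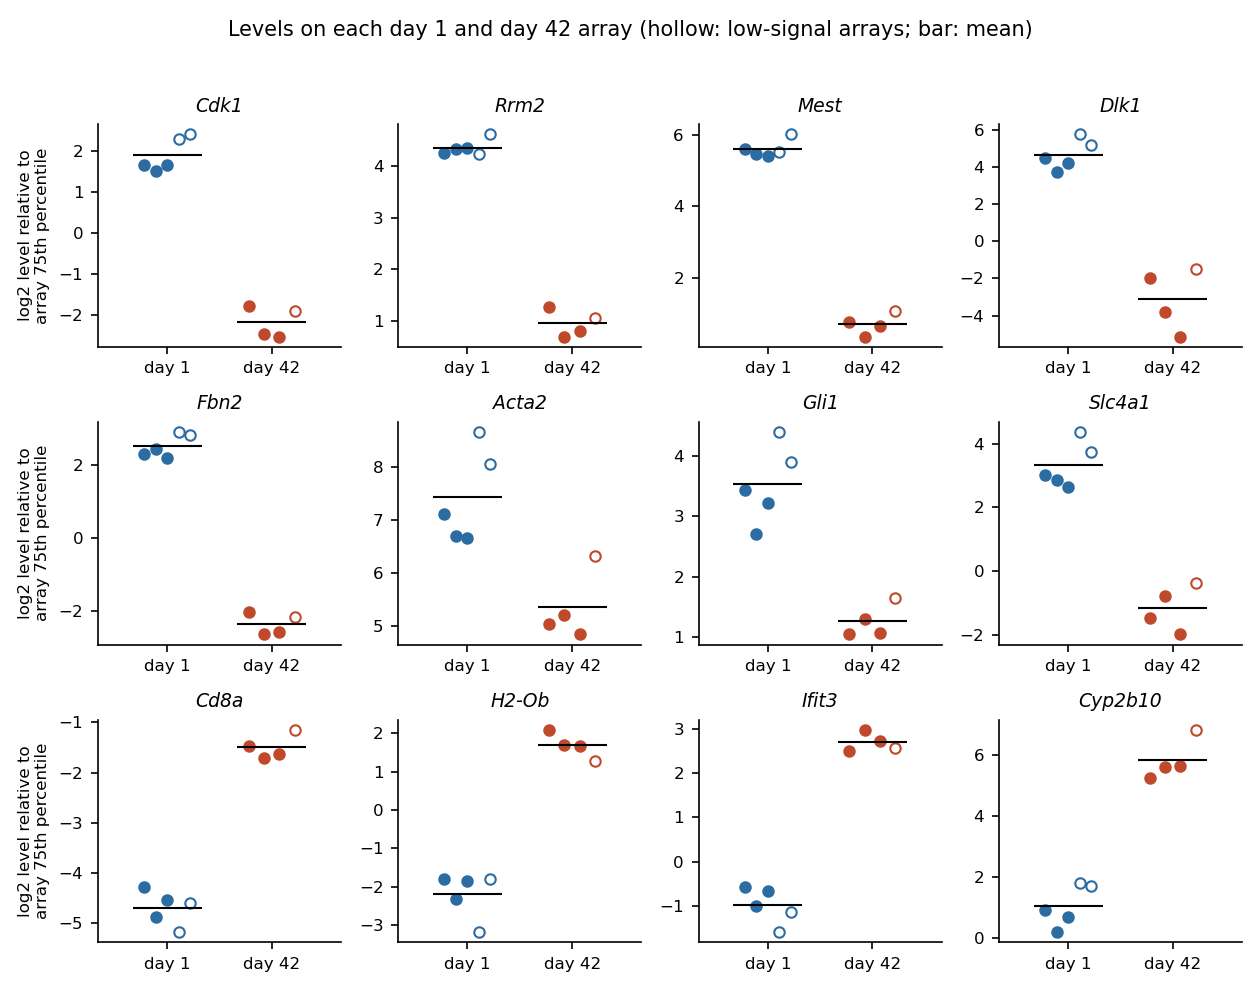
Log2 level relative to each array's 75th percentile for 12 genes described in the text, with the 5 day 1 and the 4 day 42 arrays as points, hollow for low-signal arrays, and the mean of each age as a bar. For each of the 12 genes shown the points of the 2 ages do not overlap.

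Some genes crossed the detection limit between the ages: 58 called genes were well above background on all 4 day 42 arrays and on 0 of 5 day 1 arrays, and 54 showed the reverse. Of these, 58 and 52 were also called without the low-signal arrays. Among those that rose, the immunoglobulin joining chain Jchain was at least 46.3-fold higher at day 42, with 4.40, -1.13, -0.65 and -2.08 on the 4 arrays. The natural killer receptors Klra8, Klra4 and Klra7, close relatives that probes may not separate, were at least 47.1-fold, 31.7-fold and 21.9-fold higher. The protease inhibitor Wfdc10 was at least 35.4-fold, the interleukin 22 binding protein Il22ra2 at least 18.3-fold, Prmt8 at least 16.4-fold and Hpcal4 at least 8.16-fold higher. In the other direction the serine protease Prss35 was at least 106-fold lower at day 42. The red cell surface genes Rhd and Kel were at least 19.4-fold and 11.8-fold lower, the mitotic kinase Aurkb at least 12.1-fold, Vash2 at least 14.3-fold, B3galt5 at least 11.9-fold, Plac1 at least 9.78-fold and Lrrn1 at least 8.13-fold lower.

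Cell division genes were lower at day 42 almost without exception. Of 32 mitosis genes, 0 rose and 31 fell, and all 32 fell without the low-signal arrays; the median difference was -3.34, -3.34 with slide as a block and -3.03, -3.37 and -3.68 within slides 1, 2 and 3. Cdk1, the kinase that drives entry into mitosis, stood at 1.67, 1.52, 1.66, 2.30 and 2.41 at day 1 and -1.76, -2.47, -2.52 and -1.90 at day 42 (-4.08 ± 0.40, adjusted p = 6.77e-08). Its partner cyclin Ccnb1 stood at 2.87, 2.82, 2.96, 2.70 and 2.92 and -0.54, -1.27, -1.49 and -0.96 (-3.92 ± 0.37), and Aurkb fell as given above. Neither Cdk1 nor Ccnb1 had overlapping ages. Hmmr, a spindle protein, was the 1 member that did not pass on all arrays (-1.29 ± 0.61, adjusted p = 0.127), and its low-signal arrays read below the others of their age.

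The control of these genes is known to run through CCAAT boxes, bound by NF-Y, and the CHR element TTTGAA, bound by the DREAM and MuvB complexes. RefSeq promoters (build GRCm38.p6, 250 bases before to 50 after a start) were found for 27 of the 32 genes, as 29 promoters. TTTGAA was present on either strand in 75.9% of them, against 17.9% of all 32851 promoters, and CCAAT in 75.9% against 37.4%. The last 150 bases before the start are shown for Cdk1, for Cdc20, activator of mitotic exit, and for the B-type cyclin Ccnb2. They are examples of windows with both elements or with CCAAT boxes alone. The search also covered bases further before the start and the 50 after it, which are not shown. Capitals mark CCAAT or TTTGAA on either strand, so that ATTGG is CCAAT read from the other strand.
Cdk1, chr10:69352913-69353062, minus strand: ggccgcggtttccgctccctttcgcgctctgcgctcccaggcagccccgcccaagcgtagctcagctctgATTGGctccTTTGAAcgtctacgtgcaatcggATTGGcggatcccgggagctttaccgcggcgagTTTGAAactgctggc
Cdc20, chr4:118437344-118437493, minus strand: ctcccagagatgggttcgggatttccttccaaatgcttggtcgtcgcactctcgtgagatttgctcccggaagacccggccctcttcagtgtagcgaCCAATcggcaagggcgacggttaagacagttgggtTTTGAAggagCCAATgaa
Ccnb2, chr9:70421555-70421704, minus strand: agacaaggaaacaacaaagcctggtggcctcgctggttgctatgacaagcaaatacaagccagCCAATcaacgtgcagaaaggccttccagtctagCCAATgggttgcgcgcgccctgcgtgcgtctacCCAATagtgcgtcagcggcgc
The Cdk1 window held 2 CCAAT and 2 TTTGAA matches, that of Cdc20 held 2 and 1, and that of Ccnb2 held 3 CCAAT matches and 0 TTTGAA. Cdc20 (-3.36 ± 0.49) and Ccnb2 (-3.58 ± 0.34) fell as Cdk1 did.

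DNA replication genes fell as well, 29 of 33, with 0 rises, and 32 fell without the low-signal arrays; the median difference was -1.94, -1.91 with slide as a block and -2.18, -2.19 and -1.42 within slides 1, 2 and 3. Rrm2, the ribonucleotide reductase subunit that limits nucleotide supply, stood at 4.24, 4.33, 4.36, 4.23 and 4.62 at day 1 and 1.28, 0.70, 0.81 and 1.06 at day 42 (-3.39 ± 0.29). Thymidine kinase Tk1 fell by 3.44, the helicase subunits Gins2 by 3.19 and Mcm2 by 2.28. E2F elements were searched on either strand in 32 promoters of the list: TTTCCCGC was found in 18.8% against 1.07% of all promoters, and TTTGGCGC in 15.6% against 0.514%. TTTGAA, chosen for this list after its result for mitosis was seen, was found in 15.6%, close to the 17.9% of all promoters.

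Genes that hold back division rose and fell on all arrays at shares near those of all genes (13.0% and 13.7%). More of them rose than fell without the low-signal arrays, where 22.6% of all genes rose and 24.1% fell. Of 19, 3 rose and 3 fell (9 and 3 without the low-signal arrays), and either count dropped to 1 when certain single arrays were left out (day 1 replicates 2 or 3 or day 42 replicate 1 for the rises, day 1 replicates 4 or 5 or day 42 replicates 2 or 3 for the falls). The transcription factor Klf9 rose (2.52 ± 0.40), and the imprinted inhibitor Cdkn1c fell (-1.83 ± 0.33), while the p21 gene Cdkn1a was at 0.23 ± 0.36. The list median was 0.33, 0.30 with the slide block and 0.28, 0.22 and 0.48 within slides.

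Imprinted growth genes, expressed from 1 parental copy and known to be high in fetal and newborn organs, were lower at day 42. Of 18, 16 fell and 0 rose, and the same counts held without the low-signal arrays; the median was -2.09, -2.07 with the slide block and -1.78, -2.41 and -2.03 within slides. Mest, expressed from the paternal copy, stood at 5.61, 5.46, 5.40, 5.53 and 6.02 at day 1 and 0.78, 0.37, 0.68 and 1.09 at day 42 (-4.87 ± 0.30, adjusted p = 7.07e-10). Peg3 stood at -1.47, -0.85, -0.92, -3.28 and -2.54 and -4.21, -5.00, -4.30 and -7.10 (-3.34 ± 0.52), again without overlap. Its reading on day 42 replicate 4 lay below the weakest signal well above background on that array (-4.92). The growth factor Igf2 itself lay at -3.06, -1.00, -3.15, -2.60 and -2.77 and -5.44, -5.60, -5.36 and -5.35 (-2.92 ± 0.31), with day 1 replicate 2 above the other newborn arrays and only 1 of the 4 day 42 arrays well above background.

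Genes of the fetal growth program outside the imprinted set went the same way. Of 10 RNA-binding and chromatin genes of that program, 7 fell and 1, Arid3b (0.46 ± 0.16), rose (8 and 1 without the low-signal arrays); the median was -1.07, -1.06 with the slide block and -1.24, -1.15 and -0.80 within slides. Igf2bp3, which binds Igf2 mRNA, stood at -0.92, -1.00, -1.11, -2.55 and -1.41 and -5.33, -6.42, -5.69 and -7.06 (-4.73 ± 0.32), with 1 of 4 day 42 arrays well above background. Mycn fell by 2.35 and Hmga2, a chromatin protein repressed by let-7, by 2.03. Arid3b did not pass with the replicate number as a block (adjusted p = 0.0607). Of 16 DNA methylation and Polycomb genes, 6 fell and 2 rose (6 and 2 without the low-signal arrays); the median was -0.32, -0.29 with the slide block and -0.91, -0.50 and -0.33 within slides. Those that fell included Uhrf1 (-3.22 ± 0.42), which guides maintenance methylation in S phase, and the methyltransferase Ezh2 (-1.77 ± 0.37), whereas its paralog Ezh1 rose (0.97 ± 0.24) and Cbx7 was at least 2.38-fold higher. In the IGF axis, the binding proteins Igfbp6 (2.75 ± 0.45) and Igfbp3 (2.66 ± 0.30) rose, 0 of 12 genes fell (3 and 3 without the low-signal arrays), and Igf1 was at -0.89 ± 0.89; the median was -0.05, -0.03 with the slide block and 0.51, -0.13 and 0.52 within slides.

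Matrix genes of the elastic fibre and the collagens fell more often than they rose. Of 22 elastic fibre genes 11 fell and 2 rose (15 and 3 without the low-signal arrays); the median was -1.07, -1.04 with the slide block and -1.60, -1.31 and 0.34 within slides. Elastin (Eln), the core of the fibre, stood at 4.34, 4.25, 4.04, 5.68 and 4.96 at day 1 and 2.23, 2.06, 2.31 and 3.47 at day 42 (-2.14 ± 0.36). Fbn2, the fibrillin of developing tissue, stood at 2.30, 2.43, 2.17, 2.89 and 2.81 and -2.03, -2.63, -2.57 and -2.16 (-4.87 ± 0.43, adjusted p = 2.16e-08). The crosslinking enzyme Loxl2 fell by 2.96 and the assembly protein Fbln2 by 2.34, whereas the fibulin Efemp1 (2.22 ± 0.17) and Loxl4 (0.75 ± 0.21) rose.

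Among 27 collagen chains 16 fell and 2 rose (16 and 4 without the low-signal arrays); the median was -1.15, -1.14 with the slide block and -1.19, -1.38 and 0.14 within slides. Col1a1, the fibril-forming chain of interstitial matrix, stood at 6.90, 6.83, 6.64, 8.12 and 7.46 and 5.80, 5.72, 5.66 and 6.78 (-1.20 ± 0.28), and its ages overlapped through day 42 replicate 4. The fibril chain Col5a1 (-2.14 ± 0.31) and the cartilage chain Col2a1 (-4.89 ± 1.04) fell, and Col8a1 (2.30 ± 0.55) and Col5a3 (1.52 ± 0.37) rose. Cartilage of the airway wall is known to make Col2a1. Of 12 cartilage and airway wall genes 3 fell (2 without the low-signal arrays), among them Col10a1 (-1.86 ± 0.47), while the cartilage proteoglycan Acan was at -1.09 ± 0.49 and Comp at -1.01 ± 0.76. The summed level of that list ran from 5.26 to 7.59 times the 75th percentile at day 1 and from 4.62 to 6.18 at day 42, and its part in the fall of Col2a1 was not tested. The list median was -0.61, -0.34 with the slide block and 0.53, -1.51 and -0.43 within slides.

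Other matrix genes also fell more often than they rose. Of 23 glycoproteins and proteoglycans 11 fell and 3 rose (13 and 4 without the low-signal arrays, and 1 rise without day 1 replicate 5 or day 42 replicate 3); the median was -1.00, -0.98 with the slide block and -1.13, -1.12 and -0.36 within slides. Tenascin C (Tnc), a matrix protein of growing tissue, stood at -0.75, -0.46, -0.13, -0.38 and -0.71 at day 1 and -5.49, -5.43, -5.05 and -5.05 at day 42 (-4.77 ± 0.52), with 1 of 4 day 42 arrays well above background. Thbs2 fell by 3.91 and versican (Vcan) by 3.76, while osteoglycin (Ogn, 2.75 ± 0.84) and tenascin X (Tnxb, 1.94 ± 0.31) rose. Of 25 proteases and inhibitors 5 rose and 9 fell (5 and 10 without the low-signal arrays, and 3 rises without any 1 of day 1 replicates 1, 2 and 3 or day 42 replicate 4); the median was -0.44, -0.40 with the slide block and -0.73, -0.59 and 0.53 within slides. Stromelysin (Mmp3) rose from -7.47, -5.47, -5.05, -5.60 and -6.45 to 1.02, 1.08, 1.08 and 2.10 (7.33 ± 0.48), with 1 of 5 day 1 arrays well above background. The macrophage elastase Mmp12 rose (1.84 ± 0.38), whereas the membrane collagenase Mmp14 (-2.26 ± 0.29) and the aggrecanase Adamts4 (-2.97 ± 0.56) fell.

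Genes of contractile cells, which in the newborn lung sit at the septal tips and around airways and vessels, fell more often than they rose. Of 16 smooth muscle and myofibroblast genes 8 fell and 1, Enpp2 (1.00 ± 0.23), rose (10 and 1 without the low-signal arrays); the median was -1.29, -1.30 with the slide block and -1.26, -1.08 and -0.74 within slides. Smooth muscle actin (Acta2) stood at 7.12, 6.70, 6.67, 8.67 and 8.06 at day 1 and 5.03, 5.21, 4.83 and 6.32 at day 42 (-2.10 ± 0.43). Myocd, the transcriptional coactivator of that program, stood at -2.11, -0.94, -1.88, -2.64 and -2.09 and -4.46, -3.97, -5.05 and -4.66 (-2.60 ± 0.33), and both genes separated the ages. The matrix protein Tgfbi fell by 3.12. Among 12 pericyte genes 3 fell and 1 rose, with 6 falls without the low-signal arrays and 5 without day 42 replicate 4; the median was -0.48, -0.49 with the slide block and -0.87, -0.72 and 0.56 within slides. Cspg4 (the NG2 proteoglycan, -1.06 ± 0.30) and Kcnj8 (-1.00 ± 0.24) were 2 of those that fell.

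Fibroblast genes went both ways. Of 15 lipofibroblast and interstitial fibroblast genes 5 rose and 4 fell (6 and 4 without the low-signal arrays); the median was 0.06, 0.12 with the slide block and 0.69, 0.22 and 1.01 within slides. Beside Inmt, the alcohol dehydrogenase Adh7 (3.17 ± 0.63) and the ferritin receptor Scara5 (2.23 ± 0.32) rose, and Adh1 (-2.30 ± 0.35), Meox2 (-2.07 ± 0.38) and Tcf21 (-1.49 ± 0.28) fell. The mesothelial genes Gpm6a (2.57 ± 0.54) and Upk1b (1.20 ± 0.22) rose and Msln fell (-1.22 ± 0.36), in a list with 3 rises and 1 fall of 8 (2 and 1 without the low-signal arrays); the median was 0.69, 0.75 with the slide block and 0.96, 0.22 and 0.78 within slides.

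Signals that pattern the developing lung were mostly lower at day 42 where they moved. In the Hedgehog pathway, by which epithelium addresses mesenchyme, 8 of 15 genes fell and 1, Scube2 (1.58 ± 0.19), rose (9 and 2 without the low-signal arrays); the median was -1.02, -1.00 with the slide block and -1.41, -0.89 and -0.19 within slides. The ligand Shh stood at 0.08, -0.37, 0.01, 0.12 and 0.76 at day 1 and -1.95, -2.00, -1.62 and -2.00 at day 42 (-2.01 ± 0.23). The target and effector Gli1 stood at 3.44, 2.71, 3.21, 4.39 and 3.90 and 1.04, 1.29, 1.07 and 1.65 (-2.27 ± 0.25), and Gli3 fell by 2.24. Neither Shh nor Gli1 overlapped between the ages.

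In the Wnt list 9 of 24 genes fell and 1, the receptor Fzd4 (0.59 ± 0.20), rose (12 and 3 without the low-signal arrays); the median was -0.61, -0.59 with the slide block and -1.09, -0.72 and 0.16 within slides. The inhibitor Wif1 (-2.98 ± 0.28) and the ligands Wnt11 (-2.23 ± 0.49) and Wnt5a (-2.18 ± 0.30) fell, and Fzd4 did not pass with the replicate number as a block (adjusted p = 0.0533). In the FGF list 3 of 16 fell and 2 rose (5 and 2 without the low-signal arrays); the median was -0.26, -0.25 with the slide block and -0.73, -0.32 and 0.48 within slides. The ligands Fgf18 (-2.39 ± 0.33) and Fgf9 (-1.51 ± 0.49) fell and Fgf1 (1.44 ± 0.19) and Fgf7 (1.33 ± 0.46) rose, while Etv4, a transcription factor induced by FGF in the distal epithelium, fell from 2.68, 2.34, 2.38, 4.38 and 3.72 to -1.80, -2.47, -2.32 and -1.03 (-5.00 ± 0.54). BMP and TGF-beta genes divided into 7 falls and 3 rises of 26 (9 and 5 without the low-signal arrays, and 5 rises without day 42 replicate 4); the median was -0.01, 0.00 with the slide block and -0.25, -0.13 and 0.64 within slides. The antagonists Grem1 (at least 2.51-fold lower) and Nog (-1.74 ± 0.31) and the ligand Tgfb2 (-1.50 ± 0.24) fell, and Bmp6 (1.73 ± 0.30) was 1 of those that rose. Of 6 PDGF genes the receptor Pdgfra rose (1.28 ± 0.21), 0 fell (2 and 1 without the low-signal arrays), and the ligand Pdgfa was at -0.28 ± 0.22; the median was -0.06, -0.03 with the slide block and -0.34, -0.27 and 0.97 within slides.

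Of 26 developmental transcription factors 10 fell and 2 rose (13 and 5 without the low-signal arrays, and 4 rises without day 1 replicate 4); the median was -0.35, -0.35 with the slide block and -0.35, -0.03 and -0.12 within slides. Beside Etv4, the distal progenitor factor Sox9 (-2.77 ± 0.29) and Sox4 (-1.75 ± 0.23) fell, and the airway factor Sox2 (0.99 ± 0.25) and Klf4 (0.83 ± 0.17) rose. Nkx2-1, the factor that defines lung epithelium, was at 0.05 ± 0.27 (adjusted p = 0.912).

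Hormone and clock genes moved both ways. In the glucocorticoid list 6 of 16 rose and 3 fell, with the same counts without the low-signal arrays; the median was 0.20, 0.24 with the slide block and -0.53, 0.24 and 1.11 within slides. Klf9 rose as above, Hsd11b1, which regenerates active glucocorticoid, rose (2.02 ± 0.29), and Hsd11b2, which inactivates it, was at least 2.78-fold lower. The target Zbtb16 rose (1.98 ± 0.37), the receptor Nr3c1 was at 0.67 ± 0.75, and Sgk1 (-0.43 ± 0.15) fell but did not pass with the replicate number as a block (adjusted p = 0.069). Of 15 retinoid genes 5 rose and 3 fell, with the same counts without the low-signal arrays, but 3 rose without day 1 replicate 2 or 3, 1 fell without day 1 replicate 5 or day 42 replicate 3, and 0 fell without day 42 replicate 2; the median was 0.13, 0.17 with the slide block and 0.02, 0.01 and 1.14 within slides. Lrat, Aldh1a1 (2.02 ± 0.25), which makes retinoic acid, and the carrier Rbp4 (1.37 ± 0.41) rose.

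Of 20 clock genes 4 rose and 2 fell (10 and 1 without the low-signal arrays), and the rises numbered 2 without any 1 of day 1 replicates 1, 2 and 3 or day 42 replicate 2; the median was 0.49, 0.50 with the slide block and 0.24, 0.55 and 0.37 within slides. The repressor Nr1d1 stood at -3.05, -2.67, -2.68, -1.40 and -1.77 at day 1 and -0.02, 0.62, 0.63 and 1.89 at day 42 (3.09 ± 0.38). The output factor Dbp rose (2.18 ± 0.43) and Cry1 fell (-1.40 ± 0.16). The hour of collection was not stated, and its part in these values was not tested. The E-box CACGTG was present in 27.3% of 22 promoters of the list against 7.15% of all promoters. The D-box TTATGTAA was present in 1 of the 22 (4.55%) against 0.938%.

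**Figure D3:**
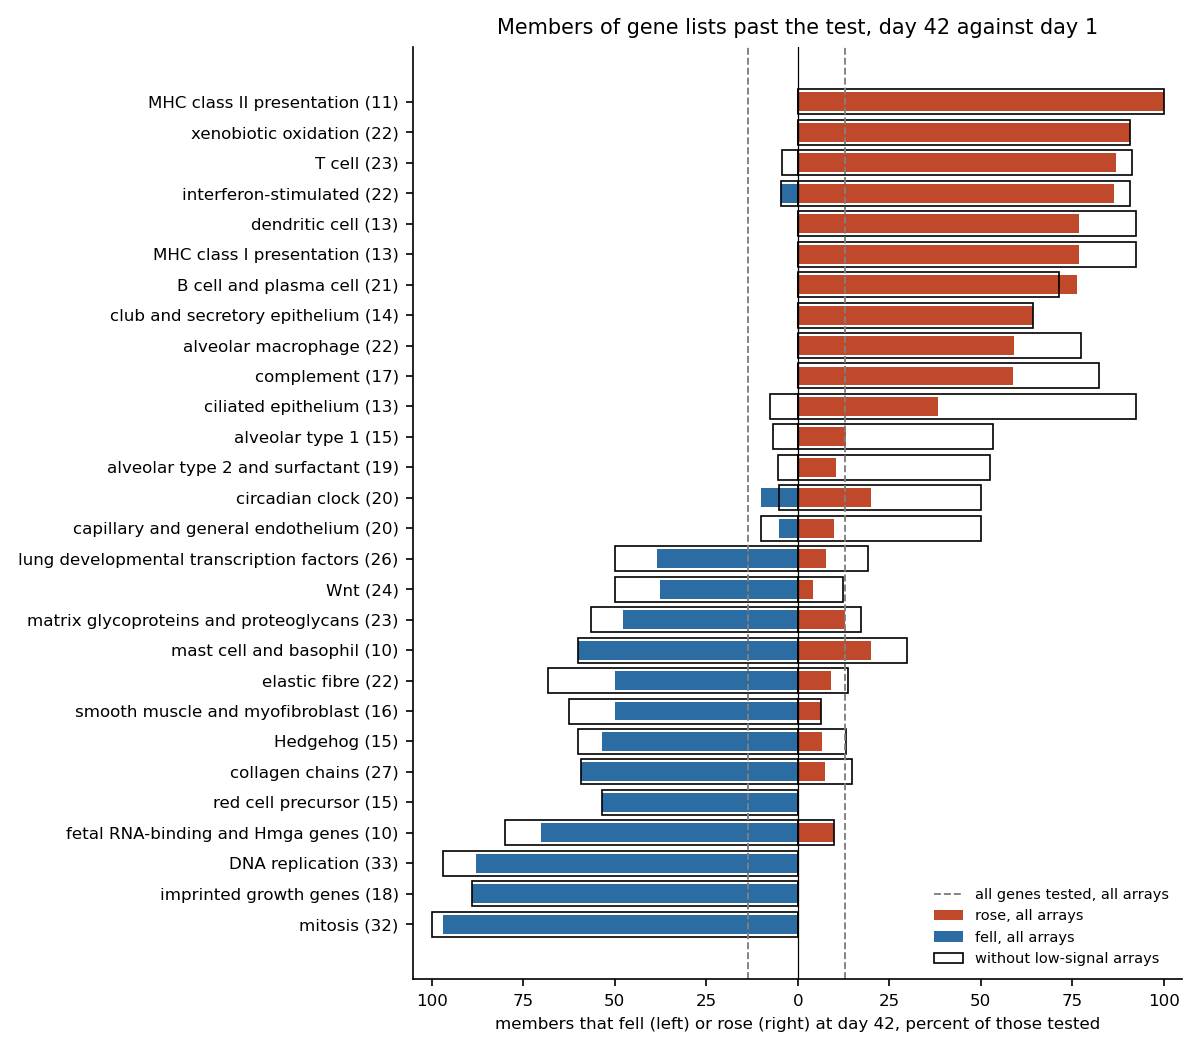
Percent of tested members of 28 gene lists that rose (right) or fell (left) at day 42 against day 1 on all arrays (filled bars) and without the low-signal arrays (open outlines), with the number of members tested in brackets. Dashed lines mark the share of all genes tested that rose (13.0%) or fell (13.7%) on all arrays, and the mitosis and MHC class II lists stand at the 2 ends.

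Alveolar epithelial genes rose on all arrays at shares near that of all genes (13.0%). More rose without the low-signal arrays, where 22.6% of all genes rose. Of 19 alveolar type 2 genes 2 rose, the alarmin Il33 (1.40 ± 0.26) and the chemokine Cxcl15 (0.69 ± 0.19), and 0 fell, against 10 and 1 without the low-signal arrays and 4 rises without day 1 replicate 4; the median was 0.29, 0.31 with the slide block and -0.45, 0.26 and 1.63 within slides. Sftpc, at the levels given above, was at -0.27 ± 0.27 (adjusted p = 0.51). Of 15 alveolar type 1 genes 2 rose (8 without the low-signal arrays, with 1 fall); the median was 0.48, 0.45 with the slide block and -0.30, 0.47 and 1.74 within slides. Hopx, a regulator of flat type 1 cells, stood at 4.64, 4.28, 4.09, 4.87 and 4.95 and 5.44, 5.71, 5.86 and 6.15 (1.22 ± 0.21), and Clic5, of the intracellular chloride channel family, rose (1.83 ± 0.38), while Ager was at 0.33 ± 0.41.

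Airway genes rose more clearly. Of 14 club and secretory genes 9 rose and 0 fell, in both readings; the median was 1.73, 1.80 with the slide block and 1.43, 1.60 and 2.20 within slides. Beside Bpifa1, Gsta3 (2.61 ± 0.29), a glutathione transferase, and Scgb1a1, from 7.16, 6.53, 6.73, 8.04 and 7.56 to 8.15, 8.26, 8.36 and 9.20 (1.29 ± 0.28), rose. Of 13 ciliated cell genes 5 rose (12 without the low-signal arrays, with 1 fall, and 8 without day 1 replicate 4); the median was 0.80, 0.85 with the slide block and 0.33, 0.70 and 1.37 within slides. The dynein arm Dnah5 (1.94 ± 0.37) and the radial spoke gene Rsph4a (1.47 ± 0.38) rose, and Foxj1 was at 0.80 ± 0.31 (adjusted p = 0.0604). Pump and channel genes gave 2 rises and 1 fall of 16 (7 and 1 without the low-signal arrays, and 5 rises without day 1 replicate 4), with the sodium pump subunit Atp1b1 at 0.79 ± 0.19; the median was 0.33, 0.31 with the slide block and -0.18, 0.31 and 1.10 within slides. Tight junction genes gave 3 falls of 16 and 0 rises (2 and 2 without the low-signal arrays), and the embryonic claudin Cldn6 was at least 4.87-fold lower; the median was 0.03, 0.08 with the slide block and -0.70, 0.01 and 0.67 within slides. Nerve and neuroendocrine genes gave 2 rises and 1 fall, of Uchl1 (-1.59 ± 0.40), of 14 (3 and 1 without the low-signal arrays, and 0 rises without any 1 of day 1 replicates 1, 2 and 3 or day 42 replicates 2 and 4); the median was 0.11, 0.12 with the slide block and 0.10, 0.01 and 0.14 within slides.

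Vessel genes passed the test at shares near the background on all arrays. Of 20 endothelial genes 2 rose and 1 fell, the rises being the receptor Tek (1.12 ± 0.21) and the phosphatase Ptprb (0.93 ± 0.21), against 10 and 2 without the low-signal arrays, 4 rises without day 1 replicate 4 and 3 falls without day 42 replicate 4; the median was 0.18, 0.19 with the slide block and -0.56, -0.01 and 1.63 within slides. The gene that fell, Sox17 (-0.71 ± 0.25), did not pass with the replicate number as a block (adjusted p = 0.0619). Of 24 angiogenesis genes 5 rose and 2 fell (8 and 4 without the low-signal arrays, and 4 falls without day 1 replicate 3 or day 42 replicate 4); the median was 0.09, 0.09 with the slide block and -0.16, 0.03 and 1.03 within slides. The angiopoietins Angpt4 (2.69 ± 0.41) and Angpt2 (1.38 ± 0.18), Esm1 (2.33 ± 0.45) and Vegfa (0.83 ± 0.18) rose, and the lymphatic growth factor Vegfd (-1.18 ± 0.24) fell.

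Genes of vascular tone included 1 of the largest falls. Agt, the angiotensin precursor, stood at 1.60, 0.80, 1.05, 3.13 and 2.22 at day 1 and -2.09, -3.93, -4.59 and -2.61 at day 42 (-5.07 ± 0.68, adjusted p = 5.6e-06). The fetal angiotensin receptor Agtr2 was at least 5.05-fold lower, while the converting enzyme Ace (1.06 ± 0.38) and the prostacyclin synthase Ptgis (1.55 ± 0.37) rose. Agt did not overlap between the ages, as its ranking among the largest falls required. Of 19 genes 5 rose and 3 fell (8 and 4 without the low-signal arrays, and 3 rises without day 42 replicate 2), and Ptgs2 (1.92 ± 0.64) and Ednra (-0.69 ± 0.23) did not pass with the replicate number as a block (adjusted p = 0.0599 and 0.054); the median was 0.28, 0.31 with the slide block and 0.28, 0.17 and 0.26 within slides.

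Antigen presentation genes rose. All 11 MHC class II genes rose, with and without the low-signal arrays; the median was 2.37, 2.42 with the slide block and 1.57, 2.15 and 3.35 within slides. H2-Aa, the alpha chain of the I-A molecule, stood at 0.71, 0.05, 0.51, 2.35 and 1.54 at day 1 and 3.07, 3.15, 2.95 and 4.45 at day 42 (2.37 ± 0.39). H2-Ob, a regulator of peptide loading typical of B cells, stood at -1.81, -2.32, -1.85, -3.19 and -1.80 and 2.09, 1.69, 1.67 and 1.28 (3.88 ± 0.30), and neither gene overlapped. The peptide exchange gene H2-DMb2 rose too (3.35 ± 0.48). Of 13 MHC class I genes 10 rose and 0 fell (12 without the low-signal arrays); the median was 1.52, 1.55 with the slide block and 0.97, 1.26 and 3.14 within slides. The class I activator Nlrc5 rose by 3.60 ± 0.32 and H2-K1 by 1.96 ± 0.40.

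Class II promoters are known to be read through a conserved module that includes an X2 box, related to TGACGTCA, and a Y box, CCAAT. Of 9 promoters of the list in RefSeq, 8 (88.9%) held CCAAT on either strand against 37.4% of all promoters, a search added after the data were examined, and 1 (11.1%) held TGACGTCA against 1.79%. That 1 promoter was H2-Aa, shown for the 150 bases before its start with TGACGTCA and CCAAT (as ATTGG) in capitals.
H2-Aa, chr17:34287824-34287973, minus strand: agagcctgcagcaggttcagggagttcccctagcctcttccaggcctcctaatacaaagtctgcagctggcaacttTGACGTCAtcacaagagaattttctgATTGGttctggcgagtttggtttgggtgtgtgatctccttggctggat

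Lymphocyte genes rose. Of 23 T cell genes 20 rose and 0 fell (21 and 1 without the low-signal arrays); the median was 2.17, 2.20 with the slide block and 1.71, 1.92 and 3.24 within slides. The coreceptor Cd8a stood at -4.27, -4.87, -4.53, -5.18 and -4.60 at day 1 and -1.48, -1.71, -1.63 and -1.15 at day 42 (3.20 ± 0.26, adjusted p = 6.52e-09). The survival receptor Il7r stood at -3.65, -3.76, -2.79, -6.40 and -4.58 and 0.39, 0.35, 0.26 and -2.09 (3.97 ± 0.61). On day 1 replicate 4 Cd8a and Il7r lay below the weakest signal well above background on that array (-4.43). The 3 members that did not pass were Tcf7 (-0.54 ± 0.23), S1pr1 (-0.18 ± 0.22) and Cd4 (0.18 ± 0.34). Of 15 natural killer and cytotoxic genes 13 rose and 0 fell (15 without the low-signal arrays); the median was 3.22, 3.21 with the slide block and 2.54, 3.09 and 4.29 within slides. The inhibitory receptor Klrg1 went from -5.96, -5.62, -5.02, -3.83 and -4.93 to -1.87, -1.57, -1.14 and 0.70 (4.10 ± 0.43), with 2 of 5 day 1 arrays well above background. Fasl, the death ligand, was at least 8.1-fold higher, and Klre1 rose by 4.30 ± 0.50. Of 21 B cell and plasma cell genes 16 rose and 0 fell (15 without the low-signal arrays); the median was 2.04, 2.04 with the slide block and 1.67, 1.58 and 2.86 within slides. The complement receptor Cr2 stood at -4.31, -3.40, -3.28, -4.49 and -4.26 and 1.28, -0.20, 0.29 and -2.58 (3.65 ± 0.54), and Jchain moved as given above. Cr2 on day 1 replicate 4 also lay below that limit (-4.43). The thymus list, which marks the neighbouring organ, gave 1 rise (Themis, at least 1.7-fold) and 1 fall (Prss16, -0.90 ± 0.31) of 6 in both readings, with a summed level of 6.13 to 9.23 at day 1 and 6.83 to 15.1 at day 42; the median was 0.22, 0.21 with the slide block and 0.62, 0.00 and -0.41 within slides.

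Myeloid genes rose in part. Of 13 dendritic cell genes 10 rose and 0 fell (12 without the low-signal arrays), led by the lectin Cd209a (4.38 ± 0.27), Klrd1 (3.50 ± 0.85), which natural killer cells also make, and Clec9a (3.19 ± 0.80); the median was 2.33, 2.40 with the slide block and 1.76, 1.77 and 2.49 within slides. Of 22 alveolar macrophage genes 13 rose and 0 fell (17 without the low-signal arrays); the median was 1.06, 1.03 with the slide block and 1.08, 1.08 and 1.01 within slides. Chil3 stood at 0.62, 0.89, 1.74, 0.37 and 1.79 and 6.74, 7.07, 7.00 and 6.62 (5.77 ± 0.36, adjusted p = 7.07e-10), with no overlap, as its ranking above required. The lipid droplet gene Cidec (3.66 ± 0.55) and Krt79 (2.92 ± 0.37) rose. Cidec is also high in fat, whose markers are given below. Monocyte and interstitial macrophage genes gave 5 rises of 19, among them Folr2 (2.36 ± 0.44), and 0 falls, against 12 without the low-signal arrays, 10 without day 1 replicate 4 and 9 without day 42 replicate 3; the median was 0.73, 0.74 with the slide block and 0.60, 0.38 and 1.57 within slides.

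Toll-like receptor and inflammatory genes gave 8 rises of 19 and 0 falls (15 without the low-signal arrays), with Tlr1 at 2.52 ± 0.44 and the chemokine Ccl4 at 2.46 ± 0.29; the median was 0.87, 0.85 with the slide block and 1.26, 1.04 and 0.71 within slides. Complement genes gave 10 rises of 17 and 0 falls (14 without the low-signal arrays), with C4b at 3.49 ± 0.34 beside Cfd; the median was 1.25, 1.21 with the slide block and 1.28, 1.28 and 1.89 within slides. Of 6 chitinase-like and resistin-like genes 4 rose (5 without the low-signal arrays), with Chil4, a close relative of Chil3 that probes may not separate from it, at 4.35 ± 0.59; the median was 1.22, 1.23 with the slide block and 1.00, 1.23 and 2.34 within slides.

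Mast cell and basophil genes mostly fell. Of 10 mast cell and basophil genes 6 fell and 2 rose (6 and 3 without the low-signal arrays). The median was -1.76 on all arrays, -1.26 without the low-signal arrays, -1.72 with the slide block and -1.18, -1.84 and -1.21 within slides. The connective tissue mast cell chymase Mcpt4 stood at 0.32, 0.09, -0.42, 1.74 and 0.96 at day 1 and -2.29, -3.41, -5.39 and -3.69 at day 42 (-4.23 ± 0.54). The carboxypeptidase Cpa3 stood at -1.45, -0.32, -0.79, -1.73 and -2.18 and -2.33, -3.63, -4.66 and -6.33 (-2.94 ± 0.58), and the basophil protease Mcpt8 was at least 7.62-fold lower. Cpa3 on day 42 replicate 4 lay below the weakest signal well above background on that array (-4.92). Both measured proteases were without overlap. The 2 that rose, the receptor Kit (0.69 ± 0.16) and Gata2 (0.83 ± 0.30), are also made by other lung cells, and Gata2 did not pass with the replicate number as a block (adjusted p = 0.0588). Neutrophil granule genes gave 4 falls and 1 rise of 15 (3 falls without the low-signal arrays and 2 without day 42 replicate 3), with the granule proteins Ngp (-3.28 ± 0.71) and Camp (-3.05 ± 0.52) falling and S100a8 at -0.28 ± 0.25; the median was 0.11, 0.07 with the slide block and -0.07, -0.17 and 0.01 within slides.

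Most interferon-stimulated genes rose and 1 fell. Of 22, 19 rose and 1 fell (20 and 1 without the low-signal arrays); the median was 1.71, 1.74 with the slide block and 1.38, 1.62 and 2.23 within slides. Ifit3, of a family of antiviral RNA-binding proteins, stood at -0.57, -0.99, -0.65, -1.59 and -1.13 at day 1 and 2.50, 2.98, 2.73 and 2.58 at day 42 (3.68 ± 0.27, adjusted p = 2.19e-09). Rsad2 (viperin), an antiviral enzyme, ran the other way, from 1.83, 1.55, 1.69, 0.77 and 1.14 to -0.11, 0.32, -0.44 and -0.71 (-1.63 ± 0.27, adjusted p = 8.11e-05). Both genes separated the ages completely, in opposite directions. Oas2 (3.05 ± 0.28) and Ifi27l2a (2.99 ± 0.40) rose, and Ifit2 (0.64 ± 0.61) and Isg15 (0.54 ± 0.35) did not pass. The core of the interferon response element, GAAA, any pair of bases and GAAA again, on either strand, was found in 52.6% of 19 promoters of the list against 3.44% of all promoters. It is shown in capitals (read from the other strand, as TTTC, a pair of bases and TTTC) for the 150 bases before the start of Ifit3, and of Rsad2, the member that fell.
Ifit3, chr19:34583379-34583528, plus strand: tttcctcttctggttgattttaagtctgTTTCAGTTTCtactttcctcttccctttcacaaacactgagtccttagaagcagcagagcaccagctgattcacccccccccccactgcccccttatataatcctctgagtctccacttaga
Rsad2, chr12:26456453-26456602, minus strand: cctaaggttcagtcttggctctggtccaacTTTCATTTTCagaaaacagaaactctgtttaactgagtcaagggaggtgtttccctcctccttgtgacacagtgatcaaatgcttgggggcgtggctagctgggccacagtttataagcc
Both windows held 1 match, so the letters were present in the promoter of the gene that rose and of the gene that fell.

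Red cell precursor genes fell or did not pass. Of 15 tested, 8 fell and 0 rose, with and without the low-signal arrays; the median was -1.85, -1.89 with the slide block and -1.98, -2.10 and -1.94 within slides. The band 3 anion exchanger Slc4a1 stood at 3.01, 2.86, 2.65, 4.36 and 3.75 at day 1 and -1.47, -0.78, -1.97 and -0.35 at day 42 (-4.47 ± 0.37, adjusted p = 1.18e-08). Kel lay at -2.28, -2.22, -2.42, -1.30 and -1.76 at day 1 and was not well above background at day 42. The erythroid gene Trim10 fell by 3.55. The summed level of the list ran from 49.5 to 188 times the 75th percentile at day 1 and from 20.8 to 62.9 at day 42. Platelet and megakaryocyte genes gave 3 falls, among them the receptors F2rl3 (-1.54 ± 0.36) and Gp1bb (-1.48 ± 0.32), and 1 rise of 12, with the same counts without the low-signal arrays but 5 falls without day 42 replicate 4; the median was -0.57, -0.51 with the slide block and -1.20, -0.84 and 0.97 within slides. Whole lung was not stated to be perfused, so the share of blood in these values was not tested.

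Oxidizing enzymes for foreign compounds rose as a group. Of 22 genes 20 rose and 0 fell, in both readings; the median was 2.05, 2.08 with the slide block and 2.32, 1.92 and 2.89 within slides. The cytochrome P450 gene Cyp2b10 stood at 0.92, 0.18, 0.69, 1.80 and 1.71 at day 1 and 5.25, 5.60, 5.64 and 6.83 at day 42 (4.77 ± 0.48). It rose without overlap, as did Cyp1a1, a target of the aryl hydrocarbon receptor, from -2.37, -2.48, -1.89, -0.84 and -1.08 to 1.63, 1.97, 1.38 and 2.39 (3.57 ± 0.85). Cyp2a4 rose by 4.71 ± 0.96, although its near-identical neighbour Cyp2a5 can share its signal. Of 31 glutathione and antioxidant genes 9 rose and 3 fell (13 and 4 without the low-signal arrays); the median was 0.19, 0.22 with the slide block and -0.33, -0.05 and 1.52 within slides. The extracellular dismutase Sod3 stood at 2.03, 1.80, 2.13, 3.90 and 3.31 and 5.36, 5.63, 5.67 and 7.00 (3.28 ± 0.40), Gpx3 rose (2.84 ± 0.49), and Gpx7 fell (-1.53 ± 0.36).

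Of 24 cholesterol synthesis genes 3 rose and 0 fell (4 and 2 without the low-signal arrays), with Sc5d at 1.08 ± 0.15 and Insig1 at 0.87 ± 0.22; the median was -0.02, 0.01 with the slide block and -0.52, -0.14 and 0.99 within slides. Of 21 fatty acid genes 8 rose and 2 fell (11 and 3 without the low-signal arrays), led by the desaturase Scd1 (2.47 ± 0.22) and the fatty acid transporter Cd36 (2.03 ± 0.47); the median was 0.58, 0.63 with the slide block and 0.33, 0.23 and 1.10 within slides. Of 23 glycolysis and hypoxia genes 4 rose and 1, the oxygen sensor Egln3 (-3.49 ± 0.47), fell (6 and 2 without the low-signal arrays, and 5 falls without day 42 replicate 4); the median was -0.22, -0.19 with the slide block and -0.72, -0.46 and 1.22 within slides.

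Most fat markers rose at day 42. Of 10 adipose genes 7 rose and 0 fell, in both readings; the median was 3.30, 3.50 with the slide block and 7.17, 2.27 and 2.32 within slides. Adiponectin (Adipoq), made by fat cells, stood at -7.69, -3.77, -5.09, -5.83 and -6.91 at day 1, with 2 of 5 arrays well above background, and at 4.92, 1.51, 0.58 and -1.68 at day 42 (7.19 ± 1.39). Adipsin (Cfd), also counted with complement, stood at -7.06, -4.35, -6.00, -6.73 and -5.03 and 7.91, 5.13, 3.97 and 2.88 (10.80 ± 1.36), with 1 of 5 day 1 arrays well above background. Retn at day 42 lay at 3.75, 0.84, -0.33 and -2.19. All 3 genes were highest on day 42 replicate 1 and lowest on replicate 4. The summed level of the list ran from 2.29 to 31.9 times the 75th percentile at day 1 and from 13.4 to 476 at day 42, and its part in the rises of Retn, Cfd, Cidec, Scd1 and Cd36 was not tested.

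Whether heart muscle genes rose depended on 1 array, while 2 or 3 fell whichever single array was left out. Of 17, 3 fell and 0 rose in both readings, but 4 rose without day 1 replicate 2. The median was -0.14 on all arrays, -0.76 without the low-signal arrays, -0.10 with the slide block and 0.39, -0.85 and 0.02 within slides. The ventricular light chain Myl2 stood at -2.05, 7.09, -1.85, -2.63 and -2.66 at day 1 and -4.29, -4.91, -5.11 and -4.13 at day 42 (-4.19 ± 1.31), with replicate 2 far above the other newborn arrays. The slow troponin Tnni1 stood at -1.16, 4.07, -0.66, -0.19 and -1.74 and -5.15, -7.58, -6.94 and -4.56 (-6.12 ± 0.95), with day 42 below every newborn array. The cardiac myosin Myh6 was at 0.51 ± 0.75, with 5.03, 8.38, 6.08, 5.30 and 3.71 at day 1. Skeletal muscle genes gave 2 falls, Acta1 (-2.37 ± 0.45) and the embryonic myosin Myh3 (-1.06 ± 0.27), and 0 rises of 10 in both readings; the median was -0.43, -0.38 with the slide block and -0.59, -1.04 and -0.22 within slides. Liver genes gave 0 rises and 0 falls of 8 in both readings, with albumin (Alb) at -1.56 ± 1.10 and Afp at 0.49 ± 1.17; the median was -0.50, -0.71 with the slide block and -0.17, -2.88 and 1.21 within slides.

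Immediate early and heat shock genes, known to respond to handling of tissue, were higher on some day 42 arrays. Of 16 tested, 7 rose and 0 fell (9 without the low-signal arrays); the median was 0.82, 0.87 with the slide block and 0.67, 0.77 and 1.27 within slides. The heat shock gene Hspa1a stood at -1.11, -1.43, -1.51, 0.00 and -0.76 at day 1 and 3.58, 3.77, 0.18 and 1.37 at day 42 (3.19 ± 0.58). Fos stood at -1.39, -1.23, -1.03, -1.57 and -1.30 and 1.46, 2.11, -0.39 and -0.90 (1.88 ± 0.50). Replicates 1 and 2 of day 42 carried the higher values of both genes, and the part of dissection time in this was not tested.

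The arrays differed in sex-linked genes within an age. Xist, transcribed from the inactive X, stood at -7.78, -0.14, -0.11, -6.56 and -7.08 at day 1 and -1.40, -1.85, -1.76 and -7.04 at day 42. The Y-linked Ddx3y stood at -1.19, -6.28, -7.94, -6.44 and -4.67 and -7.90, -7.62, -7.76 and -6.93, and was well above background on 1 of the 9 arrays, day 1 replicate 1. Xist was well above background on 5 of the 9 arrays, and neither gene was on the 3 low-signal arrays. Of 4 sex-linked genes 0 passed the test in both readings. The median was -0.14, -0.24 with the slide block and -1.12, 0.03 and 1.01 within slides. Sex was not stated in the labels, and its part in other differences was not tested.

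**Figure D4:**
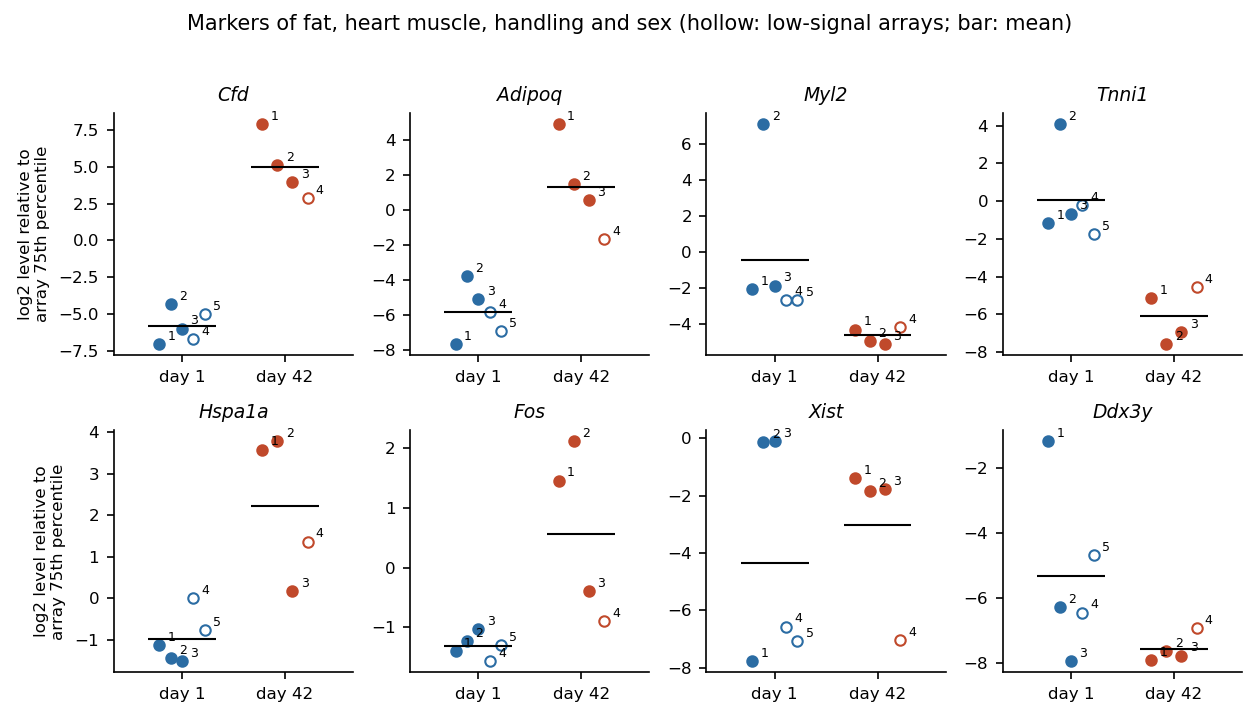
Log2 level relative to the array's 75th percentile of 8 genes that mark fat (Cfd, Adipoq), heart muscle (Myl2, Tnni1), handling (Hspa1a, Fos) and sex (Xist, Ddx3y) on each of the 5 day 1 and 4 day 42 arrays, with low-signal arrays hollow and replicate numbers beside the points. Day 1 replicate 2 stands apart for Myl2 and Tnni1, and day 42 replicate 1 is highest for Cfd and Adipoq.

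The ages between the compared ones showed when each level was reached, in values that share the day 1 arrays and were not tested. Without the low-signal arrays, the median called rise had covered 11.7% of its day 42 difference at day 4, 11.4% at day 7 and 66.5% at day 14, and the median called fall 7.91%, 18.4% and 74.9%. On all arrays the rises had covered 12.3%, 4.61% and 62.7%, and the falls 11%, 33.2% and 86.2%, so the day 7 values depended on the low-signal arrays. Of 1996 genes that rose in both readings, 616 had at least 80% of the rise at day 14 and 99 less than 20%, and of 2133 that fell, 903 and 191.

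Relative to day 1, without the low-signal arrays, the median of mitosis genes was -1.11 at day 7, -3.23 at day 14 and -3.43 at day 42. The median of elastic fibre genes was 0.06, -0.18 and -0.97, and that of collagen chains -0.06, -0.17 and -1.06. On all arrays these medians were -1.20, -3.09 and -3.34 for mitosis, -0.23, -0.67 and -1.07 for elastic fibre genes and -0.42, -0.52 and -1.15 for collagen chains. The mitosis median at day 14 was thus close to that of day 42 in both readings. The matrix medians at day 14 were near those of day 7 without the low-signal arrays, but on all arrays the elastic fibre median at day 14 lay between those of days 7 and 42. Without the low-signal arrays, elastin itself averaged 4.21, 4.97, 5.33, 5.09 and 2.20 at days 1, 4, 7, 14 and 42. Its level was above that of day 1 at each age between and below it at day 42. Red cell precursor genes had a median of 0.25 at day 14 against -1.85 at day 42, and Slc4a1 averaged 2.99 at day 14 and -1.41 at day 42. T cell genes had medians at days 7, 14 and 42 of 0.63, 1.64 and 2.31 (0.21, 1.21 and 2.17 on all arrays) and xenobiotic genes of 0.22, 1.56 and 2.14 (0.11, 1.44 and 2.05). Rsad2 averaged 1.69 at day 1, 2.25 at day 14 and -0.08 at day 42, lower than at day 1 at the last of these ages alone.

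**Figure D5:**
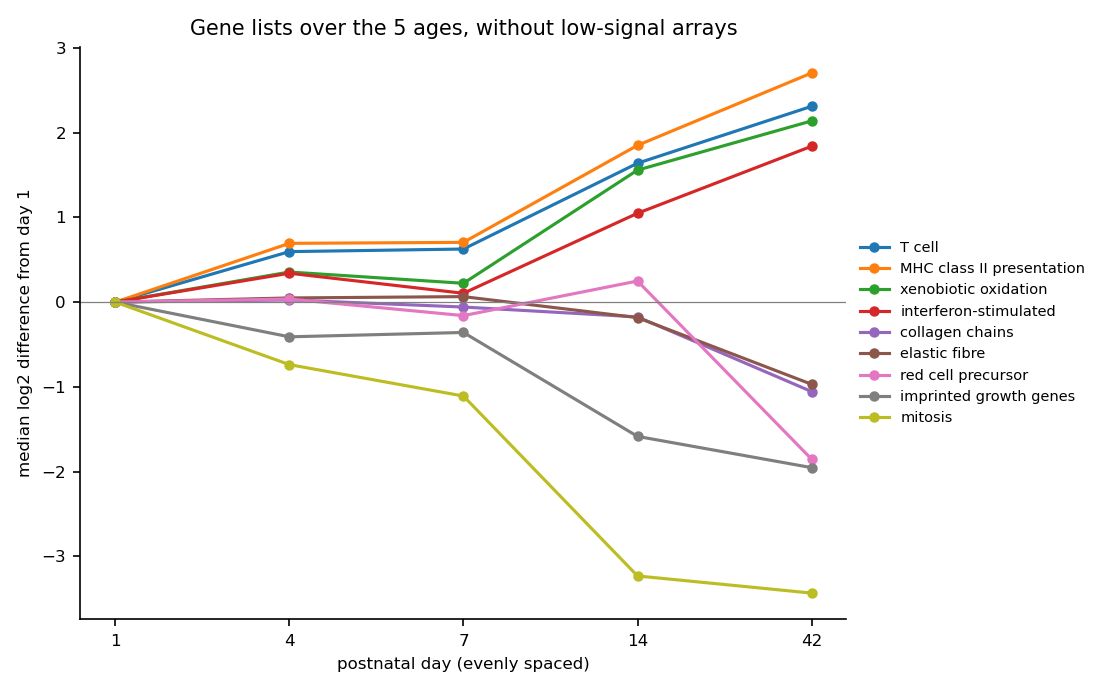
Median log2 difference from day 1 over the members of 9 gene lists at days 4, 7, 14 and 42, without the low-signal arrays (ages on an evenly spaced axis). The mitosis median is near its day 42 value at day 14, and the red cell precursor median lies above 0 at day 14 and below it at day 42. The elastic fibre median is at -0.18 at day 14, against -0.67 on all arrays.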

How the data were processed

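Total RNA of 24 whole-lung samples was hybridized to 1-colour Agilent arrays, 1 file per array. Per the file headers, the deposited intensity values are Agilent Feature Extraction output (version 10.7.3.1 in the headers, 10.7.1.1 in the submitters' processing notes), background-subtracted and detrended but not normalized between arrays, with other columns of 0 or 1 flags per spot (deposited by the authors). A deposited table holds log2 values that the authors normalized by a method not given in the sources used here. Its 51965 probes followed the scanner values on each array (r at least 0.986) with array medians shifted by -0.64 to 0.83, and it served as an alternative.

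Control spots and outlier-flagged spots were left out (138 probes had no usable spot, 0 spots were saturated), spots of 1 probe were averaged, and each array's 75th percentile of log2 processed signal was subtracted, with a pseudocount of 0. RefSeq accessions named 25992 probes for 19718 genes. The brightest probe stood for a gene, and 15889 genes well above background on at least 4 arrays were tested. limma 3.58.1 (R 4.3.3) was fitted to all 24 arrays with 5 ages, and day 42 minus day 1 was tested with Benjamini-Hochberg adjustment at 0.05. The fit was checked on simulated data with independent noise for each gene and array. Deviations that the low-signal arrays share over genes were not simulated. The number of arrays limits the precision.

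Same-numbered arrays of the 2 ages deviated together (r 0.38, 0.68, 0.76 and 0.88 over genes), but differently numbered arrays of like signal did so too (0.48 to 0.84). Between a low-signal and a stronger array r ran from -0.62 to -0.90. The labels do not say that equal numbers are pairs, and the main fit did not pair them. The replicate number entered as a block in 1 alternative, and day 1 replicate 5 has no day 42 array of its number. Alternatives were the arrays in the fit, leave-one-out, background, scaling, filters, probe choice, slide block, replicate block and array weights.

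The 63 gene lists (1101 of 1126 symbols on the array) and the comparison were chosen with earlier results of these data known. Genes were named by a rule: the 12 largest rises and falls that also passed without the low-signal arrays, with no overlap and well above background on at least 3 arrays of each age, the 8 highest bounds each way, and for each list its first member, up to 3 largest rises and falls past the test in both readings, and any member of the lists for neighbouring tissues and RNA quality. Ptprc, Hmmr, Ifit2, Isg15, Cd4, S1pr1, Tcf7, Cdc20 and Ccnb2 fall outside it and were chosen after their values were seen.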

Additional observations from a re-analysis of the deposited data

Results flagged for a closer look

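Among 466 sets of values of 1 gene in 1 age, 57 held an array whose gap to the nearest other array took up most of the range of its age (Dixon's test). Chance gives about 1 in 20 such sets, and 50 of the 57 belonged to low-signal arrays. The values are log2 levels relative to the array's 75th percentile.

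Day 42 replicate 4, the low-signal array of that age, stood below its group for Cd36 (2.13), Clec9a (-4.71), Dnah5 (-0.83), Ezh2 (-1.43), Gli3 (-2.32), Gpm6a (-0.47), Hmga2 (-7.11), Hmmr (-3.05), Ifit2 (-3.30), Il22ra2 (-2.35), Il7r (-2.09), Klra4 (-3.12), Klra7 (-4.33), Klrd1 (-3.31), Lrat (-1.27), Meox2 (0.077), Mmp12 (-4.87), Nr3c1 (0.75), Ogn (1.31), Ptgs2 (-6.12), Ptprc (-1.19), Rsph4a (-2.58), Scn3a (0.68), Tgfb2 (-0.43), Themis (-6.88) and Xist (-7.04). It stood above its group for Bmp6 (3.99), Cd4 (2.63), Col1a1 (6.78), Cspg4 (1.51), F2rl3 (-4.43), Fgf18 (2.63), Gpx3 (6.13), Gpx7 (1.34), H2-Aa (4.45), H2-K1 (8.58), Igfbp3 (1.80), Mcm2 (1.41), Mmp14 (-0.020), Mmp3 (2.10), Nlrc5 (2.33), Pecam1 (3.21), Ptgis (6.05), Tnxb (2.96) and Upk1b (1.96).

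Day 1 replicate 4, also of low signal, stood below its group for Efemp1 (1.24), Fgf1 (2.81), Fzd4 (0.44) and Tlr1 (-5.86) and above it for Kcnj8 (-0.38). Day 1 replicate 2 stood above the other newborn arrays for the muscle genes and for other genes, namely Alb (-0.13), Igf2 (-1.00), Myl2 (7.09) and Tnni1 (4.07).

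Day 42 replicate 1 was highest for Enpp2 (3.75). Day 42 replicate 2 was lowest for Lrrn1 (-7.60). Day 42 replicate 3 was highest for Shh (-1.62).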

How the results depend on the processing

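The count of genes past the test moved most with array weights and with the arrays in the fit: 4250 as reported, 7405 without the low-signal arrays, 2174 with the arrays of the 2 ages alone, 6650 with the 2 ages alone and without the low-signal arrays, and 8263 with array weights. Leaving out 1 array gave 3496 to 5847, with the highest without day 42 replicate 4, where 40.2% of the calls were higher against 48.6%. The replicate number as a block gave 3855 and the other alternatives 3311 (median scaling) to 5985 (the authors' deposited values). The cause of these changes was not tested. The median of all genes lay at -0.06, and at -0.12 with median scaling, 0.01 with quantile normalization and 0.06 in the authors' values.

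Of 210 called genes named in the text, 174 stayed past the test in the same direction under all 22 alternatives, 36 lost the call under at least 1, and 0 turned direction. The fit of the 2 ages alone lost the most calls, 27. Leaving out day 42 replicate 3 lost 14, median scaling 8 and normexp background 7. The genes listed next are those that lost the call with 1 array left out, not all 36. The replicate block changed the call of no named gene other than the 7 given with it. With 1 array left out, these called genes did not pass, with limma's adjusted p in brackets: Ace without day 1 replicates 1, 2 or 3 or day 42 replicates 2, 3 or 4 (0.0507 to 0.138), Arid3b without day 1 replicates 1, 2 or 3 or day 42 replicates 1, 3 or 4 (0.0503 to 0.0827), Ednra without day 1 replicates 4 or 5 or day 42 replicates 1, 2 or 3 (0.055 to 0.0984), Fgf7 without day 1 replicates 4 or 5 or day 42 replicates 1, 2 or 3 (0.0868 to 0.12), Fgf9 without day 1 replicate 2 or day 42 replicates 3 or 4 (0.0599 to 0.0892), Fzd4 without day 1 replicate 4 or day 42 replicates 1, 2 or 3 (0.0518 to 0.132), Gata2 without day 1 replicates 1, 2 or 3 or day 42 replicates 3 or 4 (0.0734 to 0.155), Msln without day 42 replicate 3 (0.0512), Myl2 without day 42 replicate 3 (0.0518), Ogn without day 1 replicate 5 or day 42 replicates 1, 2 or 3 (0.0552 to 0.0627), Prss16 without day 1 replicates 1 or 4 or day 42 replicates 1, 2 or 3 (0.0673 to 0.0816), Ptgs2 without day 1 replicates 4 or 5 or day 42 replicates 1, 2 or 3 (0.0707 to 0.117), Sgk1 without day 1 replicates 1, 3 or 5 or day 42 replicates 1, 2 or 3 (0.0683 to 0.111), Sox17 without day 1 replicates 4 or 5 or day 42 replicates 1, 2 or 3 (0.0741 to 0.128). These passed then but not on all arrays: Acan without day 1 replicate 1 (0.0342), Foxj1 without day 1 replicates 4 or 5 (0.0202 to 0.0282), Hmmr without day 1 replicate 4 (0.0285), Tcf7 without day 1 replicate 2 or day 42 replicate 4 (0.0168 to 0.0208). Some genes that did not pass turned direction: with 1 array left out, Ager -0.056 to 0.68, Cd4 -0.12 to 0.48, Cdkn1a -0.14 to 0.53, Igf1 -1.40 to 0.12, Nkx2-1 -0.18 to 0.22. Myh6 was at -0.25 (without the low-signal arrays), -0.25 (with the 2 ages alone and without the low-signal arrays). Nkx2-1 was at -0.0079 (median scaling). Pdgfa was at 0.011 (quantile normalization), 0.038 (authors' deposited values). S100a8 was at 0.093 (array weights). Sftpc was at 0.055 (quantile normalization), 0.16 (authors' deposited values), 0.036 (array weights). Xist was at -0.031 (normexp background).

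List counts rose with the authors' values or quantile normalization: rises among alveolar type 2 genes went from 2 to 11 and 11, alveolar type 1 from 2 to 9 and 8, ciliated from 5 to 11 and 8, channels from 2 to 7 and 6, endothelium from 2 to 10 and 9, and monocyte genes from 5 to 11 and 9. Median scaling lowered the rises of vascular tone genes from 5 to 2, of proteases from 5 to 2, of retinoid genes from 5 to 3, of clock genes from 4 to 2, of monocyte genes from 5 to 3, of fatty acid genes from 8 to 5 and of glycolysis genes from 4 to 2. With genes kept only if well above background on all arrays, fewer were tested, and the rises of natural killer genes went from 13 to 5. With 1 array left out, FGF rises and clock and fatty acid falls went from 2 to 1 (without day 1 replicates 4 or 5 or day 42 replicates 1, 2 or 3), mast cell rises from 2 to 1 (without day 1 replicates 1, 2 or 3 or day 42 replicates 3 or 4), and other list counts of 2 or fewer moved by 1 or 2 genes. Low signal limits dim genes, and the text gives bounds only where no array of 1 age was well above background. Genes well above background on few arrays of an age keep fitted differences. These rest partly on readings near or below the detection limit.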
